A study of Mus musculus with 8 samples.

Results

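The genes described here are 10 feedback genes of the ERK pathway, taken by name: the MAP kinase phosphatases Dusp1, Dusp4, Dusp5 and Dusp6, the Sprouty genes Spry1, Spry2 and Spry4, the Sprouty-related genes Spred1 and Spred2, and the ETS factor Etv4. All 10 were found among the 54838 gene rows of both deposited count tables, and all 10 passed the filter on low counts in each of 3 comparisons. Polyadenylated RNA of mouse embryonic fibroblasts was sequenced in 8 libraries, 2 in each of 4 groups. The first group was nutlin3a-induced senescent cells (n-Sen) that spent 24 h in alkaline HEPES-buffered medium, the second was n-Sen cells that spent 24 h in the same kind of medium at control pH, the third was n-Sen cells with no such medium named in their own labels, and the fourth was proliferating cells. Senescence was induced in the first 3 groups by holding the cells in G2 with the CDK1 inhibitor RO3306, exposing them to nutlin3a for 48 h, which stabilises p53 by freeing it from MDM2, and keeping them for 14 days in 100 nM BI-2536, a PLK1 inhibitor that removes dividing cells. The labels give no pH values, no number of embryos behind the cultures and no statement that the libraries of a group came from separate cultures, so the p-values measure only the spread between these libraries, which may be technical.

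ERK, the last kinase of the RAS-RAF-MEK-ERK cascade, carries growth factor signals to the nucleus, and part of what it switches on restrains the cascade itself. Dual-specificity phosphatases remove the activating phosphates from MAP kinases: the products of Dusp1, Dusp4 and Dusp5 act in the nucleus and that of Dusp6 in the cytoplasm, where it prefers ERK. Sprouty and Spred proteins act further up, between receptor and RAF, and Spred proteins bring the RAS inactivator neurofibromin to the membrane. Etv4 is a PEA3-type ETS transcription factor whose transcription follows ERK activity, so its mRNA is commonly read as an ERK output together with those of Dusp6 and the Sprouty genes. An mRNA level is not a measure of ERK phosphorylation, which these data do not hold.

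Total counts per library lay between 40608517 and 54183060, and the 10 genes had between 13.7 and 216 CPM (counts scaled to a common library size) in every library. The 10 fibroblast markers summed to between 39116 and 39804 CPM in alkaline medium, between 34943 and 38866 CPM in control medium, between 37706 and 38552 CPM in n-Sen and between 16894 and 17218 CPM in proliferating cells. Fn1 was the largest single part of this sum in each group, with a mean of 20253 CPM in n-Sen and 5515 CPM in proliferating cells. Col1a1 and Pdgfrb had at least 3631 and 202 CPM in every library, while Dcn and Lum were low in proliferating cells, with means of 9.60 and 0.587 CPM. Lum was low in the senescent groups too, with means of 4.25 CPM in alkaline medium, 11.4 in control medium and 6.40 in n-Sen. In n-Sen against proliferating cells 9 of the 10 fibroblast markers rose and 1 fell, beside 34% higher and 33.1% lower of all genes tested. In alkaline against control medium 3 of these markers rose and 6 fell, beside 9.58% higher and 10.4% lower of all genes tested. The 12 macrophage markers summed to 985 CPM in both libraries of alkaline medium, between 1055 and 1120 CPM in control medium, between 1083 and 1147 CPM in n-Sen and between 47.4 and 52.4 CPM in proliferating cells. Most of the macrophage sum in the senescent groups was Lyz2, with means of 676 CPM in alkaline medium, 702 in control medium and 732 in n-Sen. Adgre1 and Csf1r had means of 48.3 and 67.6 CPM in n-Sen and 1.16 and 9.92 CPM in proliferating cells. Epithelial markers summed to at most 5.67 CPM in the senescent groups and to between 63.4 and 71.1 CPM in proliferating cells, and endothelial markers to at most 7.36 CPM in the senescent groups and to between 26.7 and 33.0 CPM in proliferating cells. Most of the epithelial sum in proliferating cells was Krt19, with a mean of 55.97 CPM. Epcam had no count in any senescent library and a mean of only 0.0837 CPM in proliferating cells. Cdh1 went the other way from the sum. Its mean was 0.0199 CPM in proliferating cells, 0.274 CPM in n-Sen, 0.345 CPM in control medium and 0.773 CPM in alkaline medium. The endothelial genes Pecam1 and Cdh5 stayed at or under 0.421 CPM in all 8 libraries. Whether other cell types were present, and their share in the results below, was not tested. In bulk RNA fewer cells of a type cannot be told apart from less RNA per cell.

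Between n-Sen and proliferating cells, 6 of the 10 genes were lower in n-Sen (Etv4, Dusp5, Spry2, Spry4, Dusp6 and Spred2), 2 were higher (Dusp1 and Spry1) and 2 did not pass the test (Dusp4 and Spred1). In DESeq2, without proliferating replicate 2 or without n-Sen replicate 2 only 1 was called higher, Dusp1. The 3 that fell by at least 1 on the log2 scale were Etv4, Dusp5 and Spry2, where 13.1% of all genes tested fell and 17.2% rose by at least 1. A gene was called where its p in the quasi-likelihood test of edgeR, adjusted by Benjamini and Hochberg over 19264 genes, was under 0.05. That test called 67.1% of all genes tested, 33.1% lower and 34% higher, and 79.8% of the genes with a mean of at least 10 CPM (43.9% lower and 35.9% higher), so a count of 8 calls in 10 is near the background and the sizes and directions of single genes carry the description. The libraries of both groups did not overlap for 8 of the 10, against 83.4% of all genes tested. The median log2 fold change of the 10 genes was -0.58, against 0.0015 over all genes tested. RO3306, nutlin3a and 14 days of BI-2536 are named only for the senescent cells, so senescence cannot be told apart from them. Nor can it be told apart from any difference in time in culture. The macrophage markers rose with senescence in 12 of 12 cases, but Fcgr1 stayed at or under 1.35 CPM in both groups and its libraries overlapped.

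In alkaline against control medium, the comparison that the design text of the series names, 6 genes fell (Spry1, Spry2, Spry4, Spred1, Dusp1 and Dusp6), 3 rose (Dusp4, Spred2 and Dusp5) and Etv4 did not pass. All 3 Sprouty genes measured here fell, and the 2 Spred genes moved apart. Of all 19129 genes tested, 20% were called, 10.4% lower and 9.58% higher. Among genes with a mean of at least 10 CPM, 29.9% were called, 13.9% lower and 15.9% higher. The libraries of the 2 media did not overlap for any of the 10 genes, where 56.7% of all genes tested did not overlap. Only Spry1 reached a log2 change of 1 in size, as 1.8% of all genes did in the lower and 0.962% in the higher direction. The median of the 10 was -0.26, against -0.0093 over all genes tested. The macrophage markers fell in 7 of 12 cases with alkaline medium.

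In control medium against n-Sen cells with no such medium named, 7 genes rose (Dusp5, Dusp6, Spry4, Spry2, Etv4, Dusp4 and Spred1), Spry1 fell and 2 did not pass (Dusp1 and Spred2). Of all 20215 genes tested in the fit of all 8 libraries, 11.1% were called, 6.18% higher and 4.96% lower, and of those with a mean of at least 10 CPM 18.5% were called, 9.87% higher and 8.65% lower. Dusp5 alone rose by at least 1 on the log2 scale, as 1.01% of all genes did, while 0.312% fell by that much. The libraries did not overlap for 9 of the 10, against 52% of all genes tested, and the median of the 10 was 0.32, against 0 over all genes. These groups stand in different deposited tables, so the medium cannot be told apart from the change of medium itself or from any difference in handling. This comparison shares its n-Sen libraries with the first and its control-medium libraries with the second, so its values are given beside theirs and not as separate support. Of the 12 macrophage markers 1 fell and the others did not pass. With 1 library left out, between 1181 and 1382 genes were called against 2253, and the members called higher numbered 4 without n-Sen replicate 1 and 4 without control-medium replicate 2.

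**Figure D1:**
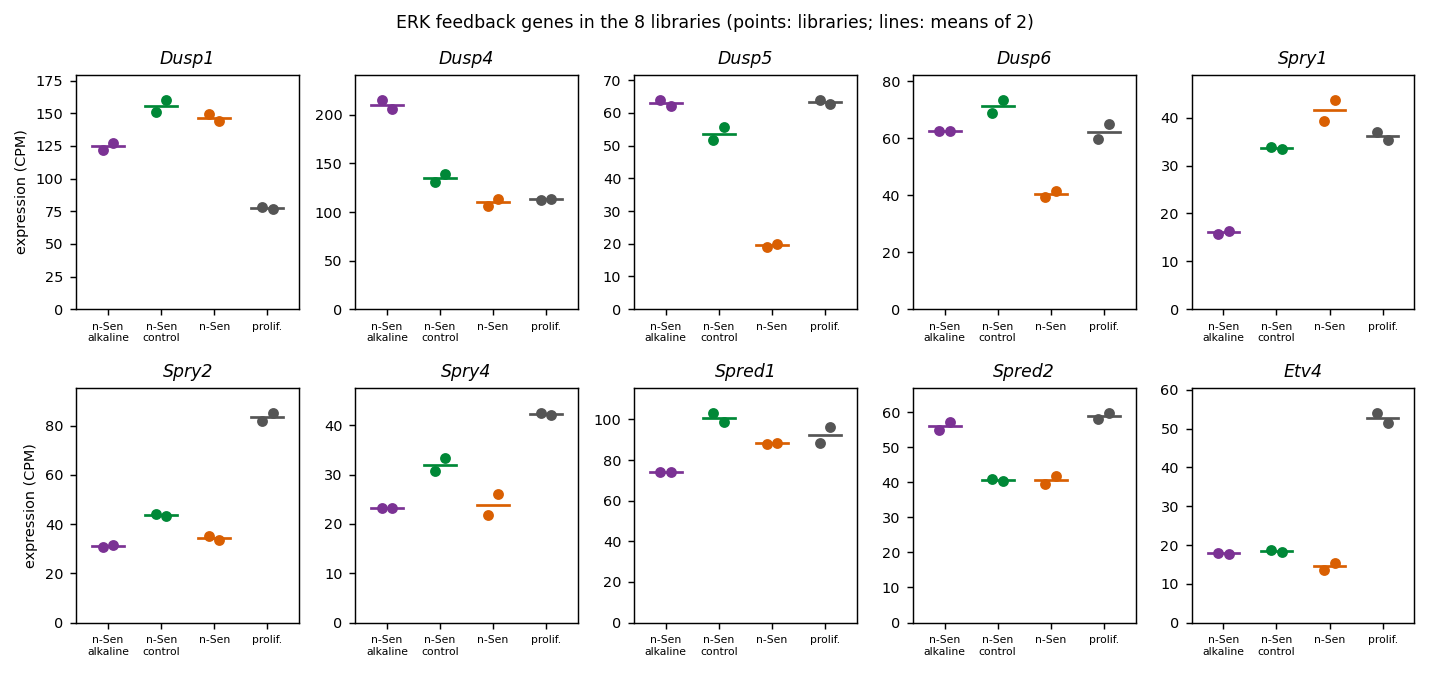
Expression of the 10 ERK feedback genes in CPM (vertical axes, each starting at 0) in the 4 groups; points are libraries and lines the means of 2. Etv4, Spry2 and Spry4 were highest in proliferating cells, Dusp4 in alkaline medium, and Spry1 was lowest in alkaline medium, with 15.7 and 16.3 CPM.

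**Figure D2:**
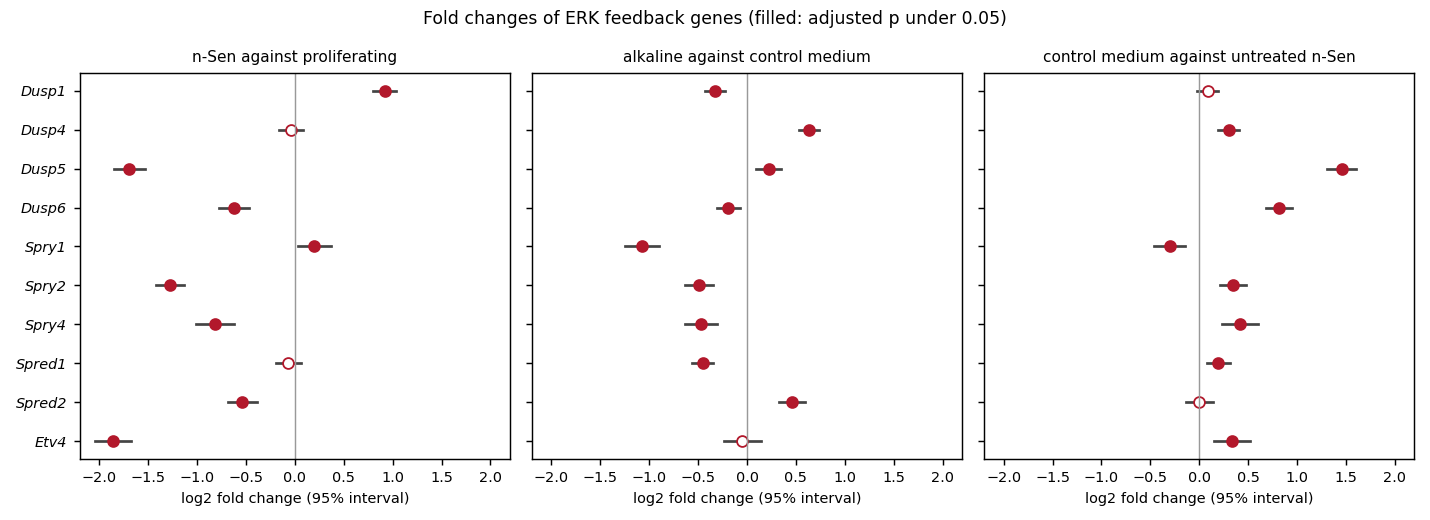
Log2 fold changes of the 10 genes with 95% intervals in the 3 comparisons, where positive values are higher in the first-named group. Filled points passed an adjusted p of 0.05 in edgeR; Dusp1 and Dusp5 lie on opposite sides of 0 in n-Sen against proliferating cells (0.92 and -1.69), and Spry1 and Spred2 in alkaline against control medium (-1.08 and 0.46).

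Dusp1 (chromosome 17, 26505590 to 26562128 on GRCm38, the build also called mm10) encodes MKP-1, an immediate early phosphatase that also acts on p38 and JNK. It had 122 and 127 CPM in alkaline medium, 151 and 160.4 CPM in control medium, 149 and 144 CPM in n-Sen and 78.3 and 76.8 CPM in proliferating cells. All 6 senescent libraries were above both proliferating ones, and no 2 groups overlapped. Its log2 fold change in n-Sen against proliferating cells was 0.92 ± 0.056 (SE; edgeR adjusted p = 1.16e-10), a 1.89-fold higher level, and it was the single phosphatase of the 4 that rose there. It fell by 0.33 in alkaline against control medium on the log2 scale (SE 0.049, edgeR adjusted p = 3.01e-05). The difference of 0.087 in control medium against n-Sen did not pass, its 95% interval running from -0.020 to 0.19.

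Dusp5 (chromosome 19, 53529109 to 53542431) encodes an inducible nuclear phosphatase that acts on ERK. It had 63.9 and 61.9 CPM in alkaline medium, 51.5 and 55.7 CPM in control medium, 19.0 and 20.1 CPM in n-Sen and 64.0 and 62.6 CPM in proliferating cells. The n-Sen libraries stood far below the other 6, and the alkaline libraries overlapped the proliferating ones. The log2 fold change in n-Sen against proliferating cells was -1.69 ± 0.076 (edgeR adjusted p = 2.00e-12), a 3.23-fold lower level, and 6.15% of all genes tested had a lower one. It was 1.46 ± 0.069 in control medium against n-Sen (edgeR adjusted p = 3.60e-12), a 2.74-fold higher level. A lower log2 fold change than that of Dusp5 was found for 98.3% of the genes tested there. The further rise in alkaline against control medium was small, 0.22 ± 0.061 (edgeR adjusted p = 0.0107), and did not pass without control-medium replicate 1 (adjusted p = 0.114) or alkaline replicate 1 (0.0704), in a range of 0.00203 to 0.114 over 9 alternatives. The antisense gene AC137853.2, not analysed here, covers 22.1% of the exonic bases of Dusp5, and no source used here says whether counting used strand, so part of the reads of Dusp5 is uncertain.

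Because Dusp1 and Dusp5 moved in opposite directions in n-Sen, and Spry1 and Dusp6 in opposite directions in control medium against n-Sen, the sequences before their start sites are shown, taken from RefSeq promoters on GRCm38.p6. RefSeq entries were matched for 7 of the 10 genes (Dusp1, Dusp5, Dusp6, Spry1, Spry2, Spred1 and Spred2). Each stretch begins 250 bases before the RefSeq start and ends before the first RefSeq or GENCODE vM21 start inside that window, written 5' to 3' on the strand of the gene. Capitals mark matches to the cAMP response element TGACGTCA or its first 7 letters TGACGTC, to the CArG box bound by serum response factor, and to the PEA3-type ETS motif AGGAAG, on either strand. GENCODE also annotates longer Dusp1 models that start far upstream, so the stretch of Dusp1 lies inside the annotated span of the gene.
Dusp1, chr17:26508520-26508722, minus strand: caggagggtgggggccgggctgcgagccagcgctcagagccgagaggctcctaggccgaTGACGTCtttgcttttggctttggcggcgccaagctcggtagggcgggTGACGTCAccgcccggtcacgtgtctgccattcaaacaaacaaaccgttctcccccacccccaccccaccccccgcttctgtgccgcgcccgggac
Dusp5, chr19:53528895-53529108, plus strand: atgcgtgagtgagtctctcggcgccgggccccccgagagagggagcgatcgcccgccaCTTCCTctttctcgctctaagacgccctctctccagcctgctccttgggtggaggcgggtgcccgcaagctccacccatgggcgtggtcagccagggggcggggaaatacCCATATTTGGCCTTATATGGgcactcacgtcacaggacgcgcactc
Dusp6, chr10:99262981-99263230, plus strand: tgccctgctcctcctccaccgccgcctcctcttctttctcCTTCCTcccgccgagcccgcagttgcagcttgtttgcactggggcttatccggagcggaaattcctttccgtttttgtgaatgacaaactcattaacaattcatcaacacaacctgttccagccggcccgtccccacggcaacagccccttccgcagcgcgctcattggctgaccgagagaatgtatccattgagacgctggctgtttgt
Spry1, chr3:37639697-37639946, plus strand: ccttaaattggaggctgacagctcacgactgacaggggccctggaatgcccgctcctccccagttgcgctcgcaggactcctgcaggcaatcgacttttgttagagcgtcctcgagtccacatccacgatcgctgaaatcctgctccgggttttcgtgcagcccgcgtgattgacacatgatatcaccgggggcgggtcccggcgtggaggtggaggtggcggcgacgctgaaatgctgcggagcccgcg
Searched over the whole 250 bases before the start, Dusp1 held TGACGTCA 143 bases and a further TGACGTC 191 bases before it. The full element occurs in 1.55% of 32851 RefSeq promoters searched the same way, and TGACGTC, which the full element contains, in 2.78%. Dusp5 held 2 CArG boxes side by side, at 82 and 72 bases before the start. At least 1 CArG box occurs in 1.47% of the promoters and 2 or more occur in 0.0183%, which is 6 of them. Spred2 held TGACGTC on the opposite strand 53 bases before its RefSeq start. AGGAAG, present in 29.5% of promoters, was found before Dusp5, Dusp6 and Spred2, and the E-box CACGTG, in 6.02% of promoters, before Dusp1. The AP-1 motif TGANTCA (6.75% of promoters), the ETS core CCGGAAG (6.91%) and TATAAA (12.4%) were found before none of the 7. Spry1, Spry2 and Spred1 had no match to any motif searched. These are matches of letters in a short window and say nothing of whether a factor binds there.

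Dusp4 (chromosome 8, 34807297 to 34819894) encodes MKP-2, a nuclear phosphatase of ERK and JNK. It had 216 and 206 CPM in alkaline medium, 131 and 140 CPM in control medium, 106 and 113 CPM in n-Sen and 113 and 113 CPM in proliferating cells. The alkaline libraries stood above all others, and the n-Sen and proliferating libraries overlapped. Alkaline against control medium gave a log2 fold change of 0.63 ± 0.048 (edgeR adjusted p = 1.12e-09), a 1.55-fold higher level and the steepest rise of the 10 there. In n-Sen against proliferating cells the difference of -0.038 did not pass, with a 95% interval from -0.16 to 0.083. Control medium against n-Sen gave 0.30 ± 0.053 (edgeR adjusted p = 0.000492).

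Dusp6 (chromosome 10, 99263231 to 99267489) encodes MKP-3, the cytoplasmic phosphatase with a preference for ERK. It had 62.7 and 62.8 CPM in alkaline medium, 69.0 and 73.6 CPM in control medium, 39.5 and 41.4 CPM in n-Sen and 59.6 and 64.9 CPM in proliferating cells. The n-Sen libraries were the lowest, and the alkaline libraries lay between the 2 proliferating ones. Its log2 fold change was -0.62 ± 0.072 in n-Sen against proliferating cells (edgeR adjusted p = 6.69e-07) and 0.82 ± 0.064 in control medium against n-Sen (edgeR adjusted p = 1.03e-08). The fall in alkaline against control medium, -0.19 ± 0.058 (edgeR adjusted p = 0.0206), did not pass in DESeq2 (0.0611), in the fit of all 8 libraries (0.0505), or without control-medium replicate 2 (0.180), alkaline replicate 1 (0.0722) or alkaline replicate 2 (0.0709). Over 9 alternatives its adjusted p lay between 0.00803 and 0.180.

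Levels per kilobase of exon allow a rough comparison between genes. The 4 phosphatases summed to 160.1 ± 1.97 CPM per kb in alkaline medium, 141 ± 6.50 in control medium, 105 ± 1.37 in n-Sen and 110 ± 0.577 in proliferating cells (SD, n = 2 each). The exon length used for Dusp1, 3311 bases, includes exons of the longer GENCODE models that start far upstream. Its level per kilobase and its share may therefore be too low, and its rank beside Dusp4 is uncertain. The sums of these 4 were close in n-Sen and proliferating cells while the makeup differed. The 6 other MAP kinase phosphatases described below are not part of these sums, and of them 5 were lower in n-Sen and 1 higher. Dusp1 made up 42.1% ± 1.62 of the sum in n-Sen against 21.3% ± 0.386 in proliferating cells, and Dusp5 made up 7.52% ± 0.178 in n-Sen against 23.2% ± 0.484 in proliferating cells. Dusp4 held 48.0% ± 1.02 in alkaline medium against 35.1% ± 0.0735 in control medium, and Dusp1 held 23.5% ± 1.02 in alkaline medium against 33.4% ± 0.0671 in control medium. With 2 libraries a group, an exact permutation test cannot go below p = 0.333, so no test of shares is given.

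Sprouty proteins are induced by ERK signalling and block it at or above RAF. Spry2 (chromosome 14, 105891947 to 105896819) had 30.8 and 31.7 CPM in alkaline medium, 43.9 and 43.5 CPM in control medium, 35.2 and 33.7 CPM in n-Sen and 81.7 and 85.1 CPM in proliferating cells. Both proliferating libraries were well above the 6 senescent ones, and no 2 groups overlapped. The log2 fold change in n-Sen against proliferating cells was -1.27 ± 0.067 (edgeR adjusted p = 1.73e-11), a 2.42-fold lower level. It fell by 0.49 (SE 0.069, edgeR adjusted p = 1.04e-05) in alkaline against control medium and rose by 0.34 ± 0.065 (edgeR adjusted p = 0.00100) in control medium against n-Sen.

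Spry4 had 23.2 and 23.3 CPM in alkaline medium, 30.7 and 33.3 CPM in control medium, 21.7 and 26.1 CPM in n-Sen and 42.5 and 42.1 CPM in proliferating cells. It was highest in proliferating cells, and the alkaline libraries lay between the 2 n-Sen ones. Its log2 fold change was -0.82 ± 0.091 in n-Sen against proliferating cells (edgeR adjusted p = 3.91e-07) and -0.47 ± 0.080 in alkaline against control medium (edgeR adjusted p = 0.000121). The rise in control medium against n-Sen, 0.42 ± 0.087 (edgeR adjusted p = 0.00247), did not pass with n-Sen replicate 1 (0.0969) or control-medium replicate 2 (0.0510) left out, in a range of 7.41e-05 to 0.0969 over 9 alternatives.

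Spry1 (chromosome 3, 37639947 to 37644598) fell with Spry2 and Spry4 in alkaline medium but not in n-Sen. It had 15.7 and 16.3 CPM in alkaline medium, 33.8 and 33.5 CPM in control medium, 39.2 and 43.7 CPM in n-Sen and 37.1 and 35.4 CPM in proliferating cells. The alkaline libraries held less than any other, and no 2 groups overlapped. Its log2 fold change in alkaline against control medium was -1.08 ± 0.083 (edgeR adjusted p = 1.25e-09), a 2.11-fold lower level and the steepest change of the 10 there. A lower log2 fold change was found for 2.81% of the genes tested. In n-Sen against proliferating cells the rise was small, 0.20 ± 0.079 (edgeR adjusted p = 0.0347), and did not pass in DESeq2 (0.0768), without n-Sen replicate 2 (0.354) or without proliferating replicate 2 (0.114), in a range of 0.0162 to 0.354 over 9 alternatives. The fall in control medium against n-Sen, -0.30 ± 0.077 (edgeR adjusted p = 0.0117), was lost on leaving out n-Sen replicate 2 (0.210), control-medium replicate 1 (0.0801) or control-medium replicate 2 (0.0874), in a range of 0.00520 to 0.210. The antisense gene Gm42922 covers 24.4% of the exonic bases of Spry1, and Spry1 carried fractional counts in 5 of 8 libraries, so part of its reads is uncertain. Gm42922 averaged 87.1 counts a library against 1523 for Spry1.

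Summed per kilobase of exon, the 3 Sprouty genes held 25.4 ± 0.467 CPM per kb in alkaline medium, 39.2 ± 0.191 in control medium, 35.8 ± 1.26 in n-Sen and 61.3 ± 0.686 in proliferating cells (SD, n = 2 each). Spry2 was the largest part of the sum in all 8 libraries, with 46.1% ± 3.00 in n-Sen against 65.2% ± 1.14 in proliferating cells. Spry1 held 39.8% ± 1.66 of it in n-Sen against 20.3% ± 0.894 in proliferating cells, and 21.8% ± 0.189 in alkaline medium against 29.5% ± 0.286 in control medium.

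**Figure D3:**
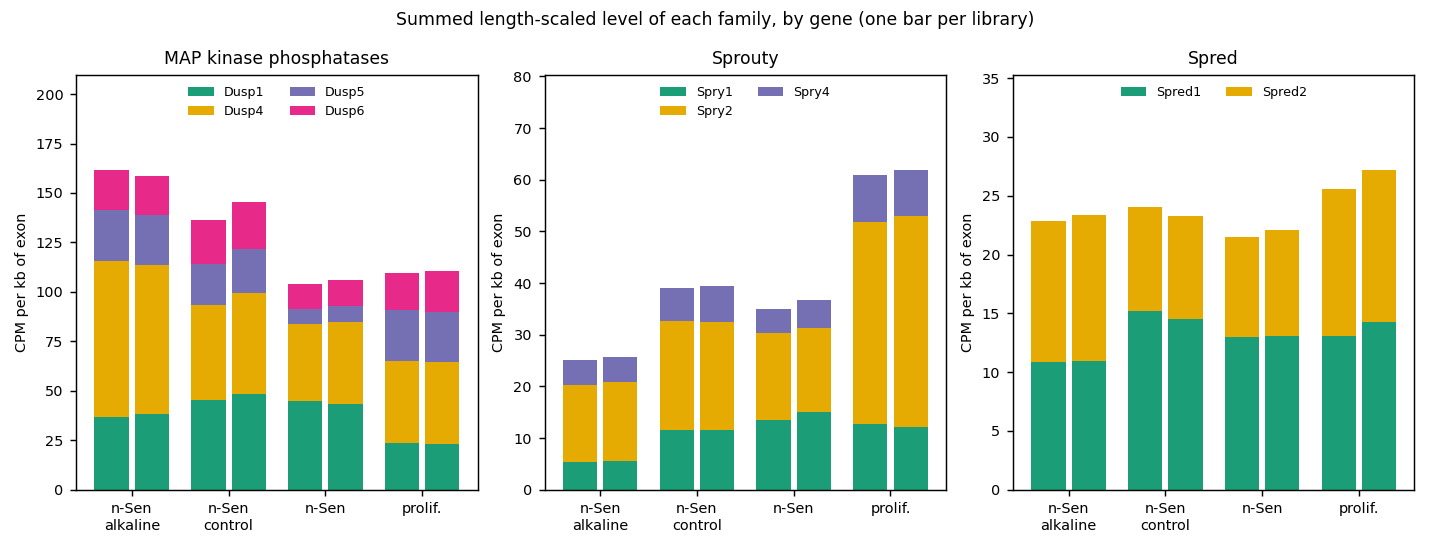
Summed level of the 4 MAP kinase phosphatases, the 3 Sprouty and the 2 Spred genes in CPM per kb of exon (vertical axes), with 1 bar per library and the genes stacked in colours. The phosphatase sum was largest in alkaline medium (160.1 CPM per kb on average) and the Sprouty sum smallest there (25.4 CPM per kb), while the Spred sum stayed between 21.5 and 27.2 CPM per kb in the 8 libraries.

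The Spred genes, whose products recruit neurofibromin to switch off RAS, moved apart in alkaline medium. Spred1 (chromosome 2, 117121374 to 117182279) had 73.9 and 74.3 CPM in alkaline medium, 103 and 98.7 CPM in control medium, 88.0 and 88.4 CPM in n-Sen and 88.4 and 96.5 CPM in proliferating cells. Its log2 fold change in alkaline against control medium was -0.45 ± 0.053 (edgeR adjusted p = 8.22e-07). Spred2 (chromosome 11, 19924375 to 20024026) had 55.0 and 57.3 CPM in alkaline medium, 40.8 and 40.4 CPM in control medium, 39.4 and 41.7 CPM in n-Sen and 58.0 and 59.8 CPM in proliferating cells. For it the log2 fold change in alkaline against control medium was 0.46 ± 0.063 (edgeR adjusted p = 7.34e-06), of a size close to that of Spred1 with the opposite sign. The sum of both per kilobase was 23.1 ± 0.389 CPM per kb in alkaline medium against 23.7 ± 0.529 in control medium, and Spred1 made up 47.3% ± 0.631 of it in alkaline medium against 62.9% ± 0.564 in control medium. Spred3, described below, is not part of this sum. It had 5.11 CPM per kb in alkaline medium and 6.64 in control medium. In n-Sen against proliferating cells Spred2 fell by 0.54 (SE 0.070, edgeR adjusted p = 2.76e-06), and Spred1 did not pass (-0.067, 95% interval from -0.20 to 0.064). Spred2 did not pass in control medium against n-Sen (0.0012, 95% interval from -0.13 to 0.14), and the rise of Spred1, 0.20 ± 0.056 (edgeR adjusted p = 0.0263), lost its call when any one of the 4 libraries compared was left out (adjusted p of 0.0539 to 0.218). Over 9 alternatives the adjusted p of Spred1 lay between 0.0118 and 0.218.

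Etv4 (chromosome 11, 101769742 to 101785371), the transcription factor of the set, had 18.0 and 17.8 CPM in alkaline medium, 18.7 and 18.1 CPM in control medium, 13.7 and 15.4 CPM in n-Sen and 54.1 and 51.5 CPM in proliferating cells. All 6 senescent libraries lay far below both proliferating ones, and no 2 groups overlapped. The log2 fold change in n-Sen against proliferating cells, -1.86 ± 0.087 (edgeR adjusted p = 3.61e-12), was the steepest of the 10, a 3.62-fold lower level. The difference of -0.047 in alkaline against control medium did not pass, with a 95% interval from -0.24 to 0.14. Control medium against n-Sen gave 0.34 ± 0.088 (edgeR adjusted p = 0.0149), which was lost on leaving out n-Sen replicate 1 (0.207), control-medium replicate 1 (0.115) or control-medium replicate 2 (0.0542), in a range of 0.0107 to 0.207.

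The n-Sen and the alkaline comparisons share no library. Of the 10 genes, 3 were lower in both (Spry2, Spry4 and Dusp6), 2 were lower in n-Sen and higher in alkaline medium (Dusp5 and Spred2) and 2 were higher in n-Sen and lower in alkaline medium (Dusp1 and Spry1). The other 3 passed in 1 comparison each: Etv4 in n-Sen, Dusp4 and Spred1 in alkaline medium. Of 9736 genes tested in both comparisons with a mean of at least 10 CPM, 4.15% were lower in both, 5.89% were lower in n-Sen and higher in alkaline medium, 7.66% the reverse, and 6.71% higher in both. Of the 7 genes called in both, 3 rest on a call that some alternatives end, as given with each gene: Spry1 in n-Sen (adjusted p up to 0.354), and Dusp6 and Dusp5 in alkaline medium (up to 0.180 and 0.114).

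Other genes of the pathway were described by lists that leave these 10 out, and each list gene said to have risen, fallen or differed passed the edgeR test at an adjusted p under 0.05 (± after a log2 change is its SE). Of 6 other MAP kinase phosphatases, 5 were lower in n-Sen than in proliferating cells and Dusp8 was higher. Of these 5, Dusp2 was near the floor, with means of 0.304 CPM in n-Sen and 2.11 CPM in proliferating cells. Of all genes tested 33.1% were lower and 34% higher. The median log2 fold change was -1.11 for the 6, against 0.0015 over all genes. Dusp9 had 1.82 ± 0.371 CPM in n-Sen and 35.2 ± 0.727 CPM in proliferating cells (SD, n = 2 each), and Dusp10, a phosphatase of p38 and JNK, had 9.29 ± 1.01 CPM in n-Sen and 24.4 ± 0.398 CPM in proliferating cells. In alkaline against control medium 3 rose and 1 fell (median 0.39), beside 9.58% higher and 10.4% lower of all genes tested. Dusp10 had 28.9 ± 1.36 CPM in alkaline medium and 18.6 ± 0.0801 CPM in control medium. Spred3 was higher in n-Sen than in proliferating cells (0.42 ± 0.087), lower in alkaline than in control medium (-0.38 ± 0.078) and higher in control medium than in n-Sen (0.35 ± 0.085).

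Among 17 other ERK output genes, n-Sen had 7 lower and 5 higher than proliferating cells (median -0.094), near the shares among all genes tested (33.1% lower and 34% higher). Fosl1, an AP-1 subunit stabilised by ERK, had 21.8 ± 0.966 CPM in n-Sen and 78.8 ± 4.65 CPM in proliferating cells. Hmga2, a chromatin architectural protein, had 254 ± 4.22 CPM in n-Sen and 1320 ± 15.4 CPM in proliferating cells. Myc fell by 1.39, and the ephrin receptor gene Epha4 and the matrix gene Tnc rose by 1.04 ± 0.079 and 0.58 ± 0.037. Of the 17, 7 fell and 6 rose in alkaline against control medium (median -0.097, against -0.0093 over all genes). There 10.4% of all genes tested were called lower and 9.58% higher. Ccnd1, the G1 cyclin D1, had 203 ± 4.94 CPM in alkaline medium and 402 ± 0.00273 CPM in control medium, while the cytokine gene Lif had 99.4 ± 0.114 CPM in alkaline medium and 49.9 ± 2.08 CPM in control medium and Ier3 rose by 0.65 ± 0.048. Of the 17, 12 rose and 1 fell in control medium against n-Sen (median 0.42, against 0 over all genes). There 6.18% of all genes tested were called higher and 4.96% lower. Fosl1, Lif and Ier3 rose by 1.31 ± 0.073, 1.27 ± 0.074 and 0.95 ± 0.057, and Etv1 fell by 0.44. In n-Sen against proliferating cells Etv1 was higher by 0.94 ± 0.14, unlike Etv4.

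Immediate early genes, which serum induces within minutes, fell in 11 of 17 cases in n-Sen against proliferating cells and rose in 3 (median -0.50), beside 33.1% lower and 34% higher of all genes tested and 43.9% lower of those of at least 10 CPM. Jun and Srf fell by 1.10 and 0.89, and Btg2 and Atf3, which also respond to p53 and stress, rose by 1.36 ± 0.069 and 1.27 ± 0.18. Among the 17, 9 fell and 2 rose in alkaline against control medium (median -0.17), beside 10.4% lower and 9.58% higher of all genes tested. Egr1, an ERK-induced zinc finger factor, had 56.7 ± 2.58 CPM in alkaline medium and 133 ± 5.79 CPM in control medium. Egr3 had 3.56 ± 0.535 CPM in alkaline medium and 11.3 ± 1.98 CPM in control medium, Nr4a1 fell by 0.65, and Fosb and Egr2 rose by 0.82 ± 0.16 and 0.50 ± 0.14. Among them, 11 rose and 6 did not pass in control medium against n-Sen (median 0.40), beside 6.18% higher and 4.96% lower of all genes. Egr1 stood at 133 ± 5.79 CPM in control medium and 42.4 ± 6.33 CPM in n-Sen.

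Of 18 genes of the core RAS-ERK cascade, from RAS to ERK with its adaptors, 8 rose and 6 fell in n-Sen against proliferating cells. Of all genes tested 34% were higher and 33.1% lower, and of those of at least 10 CPM 35.9% were higher and 43.9% lower. Among the 18 were Nras, lower by 0.66 on the log2 scale, and Araf, higher by 0.66 ± 0.067. In alkaline against control medium 3 of 18 rose and 3 fell, beside 9.58% higher and 10.4% lower of all genes tested. Of genes of at least 10 CPM, 15.9% were higher and 13.9% lower. Map2k1, which encodes the ERK kinase MEK1, had 183 ± 6.47 CPM in alkaline medium and 117 ± 3.74 CPM in control medium, and the adaptor gene Shc1 fell by 0.26. Braf and Sos1 fell by 0.23 each in control medium against n-Sen, and the other 16 did not pass. Of all genes tested 6.18% were higher and 4.96% lower there, and of those of at least 10 CPM 9.87% were higher and 8.65% lower. Of 7 other MAP kinases tested, 5 fell and 2 rose in n-Sen against proliferating cells, beside 33.1% lower and 34% higher of all genes. The p38 delta gene Mapk13 had 26.8 ± 0.684 CPM in n-Sen and 5.79 ± 0.640 CPM in proliferating cells. Only Mapk11 passed in alkaline against control medium, lower by 0.52, and the 7 did not pass in control medium against n-Sen.

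Of 10 other brakes on RAS-ERK signalling, 4 fell and 1 rose in n-Sen against proliferating cells, beside 33.1% lower and 34% higher of all genes tested. Of genes of at least 10 CPM, 43.9% were lower and 35.9% higher. Errfi1, an inhibitor of the EGF receptor, had 16.4 ± 1.27 CPM in n-Sen and 117 ± 5.65 CPM in proliferating cells, and the adaptor gene Dok1 rose by 0.63 ± 0.067. In alkaline against control medium the ubiquitin ligase gene Cblb rose by 0.63 ± 0.060 and Lrig1, a receptor inhibitor, by 0.29 ± 0.061, and Errfi1 fell by 0.43. Of the 10, 5 rose and Lrig1 fell in control medium against n-Sen, beside 6.18% higher and 4.96% lower of all genes tested. Of genes of at least 10 CPM, 9.87% were higher and 8.65% lower. Errfi1, Cblb and Dok1 rose by 0.99 ± 0.080, 0.75 ± 0.071 and 0.59 ± 0.060.

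**Figure D4:**
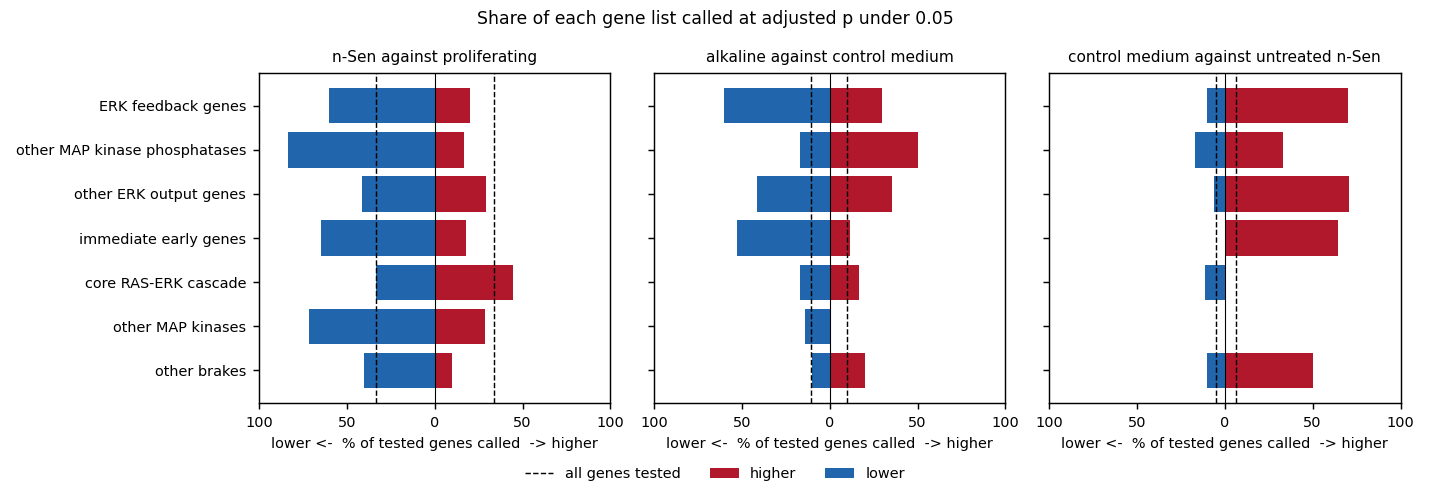
Percent of the tested genes of each list that were called lower (left, blue) or higher (right, red) at an edgeR adjusted p under 0.05, with dashed lines at the share of all genes tested. In control medium against n-Sen, 7 of 10 ERK feedback genes, 12 of 17 other ERK output genes and 11 of 17 immediate early genes were higher, beside 6.18% of all genes. Of genes with a mean of at least 10 CPM, 9.87% were higher there. Of 10 other brakes 5 were higher and 1 lower, and of 6 other MAP kinase phosphatases 2 were higher and 1 lower. Of 18 core cascade genes 2 were lower and none higher, and none of 7 other MAP kinases was called.

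Genes with a like pattern were looked for among 11605 genes with a mean of at least 5 CPM, by the mean absolute difference of log2 CPM centred over the 8 libraries. Closest to Dusp4 were Plekhg3 (0.038), Tmcc3 (0.044) and Pak1 (0.056). Fbxl5 (0.050), Alkbh8 (0.051) and Anxa1 (0.053) came closest to Spred1, and Ndc1 (0.050), Rfwd3 (0.051) and Alyref (0.061) to Etv4. The 8 libraries form 4 groups of 2, and the values are given as a description.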

How the data were processed

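Poly(A)-selected, strand-marked (dUTP) libraries were made from mouse embryonic fibroblasts, as the labels' protocols describe. The submitters' processing notes name HISAT2 (2.1.0), DESeq2 (1.34.0), fastp (0.23.2), featureCounts from Subread (2.0.2) and build mm10; the annotation release and the strand setting of the counting are not given in the sources used here. The authors deposited expected counts, which can be fractional, in a pair of tables of 4 libraries with the same 54838 rows; between 32.7% and 33.7% of a library's nonzero values were fractional. Tests used rounded values.

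Symbols, coordinates and exon lengths (the union of a gene's exons) came from GENCODE vM21 on GRCm38; a symbol was found for 54723 of the 54838 IDs. Genes were kept with filterByExpr, scaled by TMM and tested with edgeR 4.0.16 (quasi-likelihood, Benjamini-Hochberg, threshold 0.05) in R 4.3.3. Senescent n-Sen against proliferating and alkaline against control medium each had a fit of their own 4 libraries, and control medium against n-Sen came from a fit of all 8. SE is the absolute log2 fold change over the square root of F; 95% intervals use its t quantile. CPM uses TMM scaling over all 8 libraries, so ratios of CPM can differ slightly from fitted fold changes. Libraries of a group differed by more than sampling noise (chi-square of 4.63 to 7.39 per degree of freedom). Alternatives were DESeq2 1.42.0, RLE scaling, no filter, another set of libraries in the fit, the replicate number as a block, and leaving out each library.

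The members, lists and tests were chosen with earlier results of these data known. Besides the 10 genes, the text names from each list the called genes of smallest p and those moving against the majority, or any gene in lists of 10 or fewer. Genes of like pattern were sought for the most abundant member of each class. The backgrounds among genes of at least 10 CPM (including calls in both comparisons) and the promoter motifs were chosen after values had been seen. Spry3 is not analysed here.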

Additional observations from a re-analysis of the deposited data

How the results depend on the processing

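Of the 30 log2 fold changes of the 10 genes, 21 kept direction and side of the threshold under all 9 alternatives. The counts of members lower in n-Sen against proliferating cells and in either direction in alkaline against control medium stayed within 1.5 times. Members higher in n-Sen numbered 1 in DESeq2 and between 1 and 2 with a library left out, against 2; the call lost was Spry1. In control medium against n-Sen, leaving out a library gave between 1181 and 1382 genes called, against 2253, between 4 and 6 members higher, against 7, and between 0 and 1 lower, against 1; a lone library is then assumed to vary like the other groups. Values that changed sign were near 0. Dusp4 in n-Sen against proliferating cells was -0.038 and lay between -0.086 and 0.017 with a library left out, reaching 0.017 without n-Sen replicate 1. Spred2 in control medium against n-Sen was 0.0012, and was -0.0070 in DESeq2, -0.0070 under RLE scaling, -0.0023 with no filter, and as low as -0.037 with a library left out, between -0.037 and 0.040. In alkaline against control medium, Dusp6 kept its direction but stayed called in 4 of 9 alternatives.

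Replicate numbers are shared by all groups, but same-numbered libraries did not deviate together: the correlation of their deviations was -0.017, -0.0065 and -0.0031 in the 3 comparisons, so the numbers are not taken as pairs. With the replicate number as a block, 12726 genes were called in n-Sen against proliferating cells, 4310 in alkaline against control medium and 2078 in control medium against n-Sen, against 12930, 3828 and 2253 without it. Member counts with the block were 2 higher and 6 lower in n-Sen, 3 higher and 6 lower in alkaline medium and 7 higher and 1 lower in control medium. Each group has 2 libraries, which limits the precision of every value.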
